A study of Homo sapiens with 18 samples.

Results

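The 10 genes described here are readouts of protein-folding stress in the endoplasmic reticulum (ER), the compartment in which membrane and secreted proteins fold; the programme is called the unfolded protein response. They were taken by symbol (HSPA5, HYOU1, CALR, PDIA4, SDF2L1, DNAJB9, HERPUD1, SYVN1, EDEM1 and XBP1) out of 59251 genes counted, and all 10 were among the 21615 genes that passed the filter on low counts. RNA was measured in 18 libraries, 3 in each of 6 groups, from the human cell line HAP1. The series compared cells that express SARS2, the seryl-tRNA synthetase of mitochondria, with cells depleted of it for different numbers of days. An unmodified parental line gave a group with doxycycline (labelled Plus dox) and a group without it (labelled No dox). A line of the genotype delSARS2+SARS2-1xFLAG, called the SARS2 line below, has lost SARS2 and carries it again with 1 FLAG tag. That line gave a group with doxycycline and groups labelled 3, 6 and 9 days without it. The drug was used at 15 ng/mL, and all cells had been grown with it until it was removed for the experimental conditions, per the labels' protocols. The sources used here do not give how long the parental cells had been without it, whether the line is 1 clone, or which promoter drives the transgene.

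When unfolded proteins accumulate in the ER, the sensors IRE1 (gene ERN1), ATF6 and PERK (gene EIF2AK3) are released from the chaperone BiP. IRE1 splices XBP1 mRNA and ATF6 is cleaved into a transcription factor, and together these raise ER chaperones and the machinery that returns misfolded proteins to the cytosol for degradation. PERK phosphorylates eIF2alpha and so raises ATF4, but ATF4 can be raised in the same way with no ER stress when other kinases sense amino acid shortage, haem shortage or mitochondrial damage. That wider programme is the integrated stress response, and the genes HERPUD1 and DDIT3 are known to answer to ATF4 as well as to the ER arms.

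Across the time points, HERPUD1 rose most at day 6, where the ER chaperones did not pass the test, and the chaperones HSPA5, HYOU1, CALR and PDIA4 rose at day 9. In the parental line HERPUD1 was also higher without doxycycline, and there the chaperones showed no rise. Of a list of 45 integrated stress response genes, most were higher at days 6 and 9 and in the parental line without doxycycline. The values follow the promoters, the libraries and the levels of the 10 genes.

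The promoters are shown for the motifs through which ATF6 and XBP1 are known to act, since these set the ER arms apart from ATF4. They come from RefSeq on GRCh38.p14 (250 bases before to 50 after each transcription start), and all 10 genes matched. The ER stress element ERSE was searched as CCAAT and CCACG with 9 bases between them, ERSE-II as ATTGG and CCACG with 1 base between them, the XBP1 element UPRE as TGACGTGG and the ATF4 element CARE as TGATGNAAT, each on both strands. An exact ERSE lay in HSPA5, CALR and XBP1, against 27 of 35116 promoters in all (0.077%). An exact ERSE-II lay in HYOU1, HERPUD1 and SDF2L1, against 19 of 35116 (0.054%). Each line gives 15 bases on either side of a match, read 5′ to 3′ along the gene, with the match in capitals. Matches that begin with CGTGG are the reverse complement of the motif.
HSPA5 ERSE at chr9:125241376-125241424, gene on the minus strand: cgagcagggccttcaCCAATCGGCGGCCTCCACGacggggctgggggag
CALR ERSE at chr19:12938369-12938417, gene on the plus strand: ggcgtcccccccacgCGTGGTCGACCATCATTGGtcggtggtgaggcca
XBP1 ERSE at chr22:28800588-28800636, gene on the minus strand: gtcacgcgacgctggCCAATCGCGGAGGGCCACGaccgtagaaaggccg
HYOU1 ERSE-II at chr11:119057365-119057405, gene on the minus strand: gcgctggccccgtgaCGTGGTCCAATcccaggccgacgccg
HYOU1 ERSE-II at chr11:119057259-119057299, gene on the minus strand: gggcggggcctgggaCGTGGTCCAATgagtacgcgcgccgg
HERPUD1 ERSE-II at chr16:56932010-56932050, gene on the plus strand: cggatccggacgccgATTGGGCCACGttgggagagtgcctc
SDF2L1 ERSE-II at chr22:21642099-21642139, gene on the plus strand: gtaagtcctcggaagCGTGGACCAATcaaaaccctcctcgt
The UPRE had 1 match among the 10 genes, in HYOU1, where it overlaps the first ERSE-II window, and it lay in 0.729% of all promoters. The CARE letters, searched with T as the last base, had no exact match in these 10 windows and lay in 0.991% of all promoters. On the other strand, the HERPUD1 promoter holds the same letters except for that last base. Forms with another last base were not searched, so the CARE counts do not show whether a gene lacks an ATF4 element. PDIA4, DNAJB9, SYVN1 and EDEM1 had no exact match to any of the 4 motifs. XBP1 and PDIA4 have 2 listed start sites each, and the second held none of them. Among the 45 integrated stress response genes, 37 had a listed promoter. Of these, 0 held an ERSE, 0 an ERSE-II, 1 a UPRE and 2 a CARE of the form searched. The ERSE was not particular to the 10 genes. Of 22 other ER chaperones and folding enzymes with a listed promoter, 5 held an ERSE, 0 an ERSE-II and 3 a UPRE. Of 14 other ER degradation genes 2 held a UPRE, and of 20 translocon and secretion genes 4 did, with 0 ERSE and 0 ERSE-II in both lists. The ERSE was first described in promoters of ER chaperones, HSPA5 and CALR among them, so its presence there is no independent observation. Nor are the ERSE-II matches, that in HERPUD1 included, offered as independent observations, since the 10 genes were taken as known readouts of this response.

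**Figure D1:**
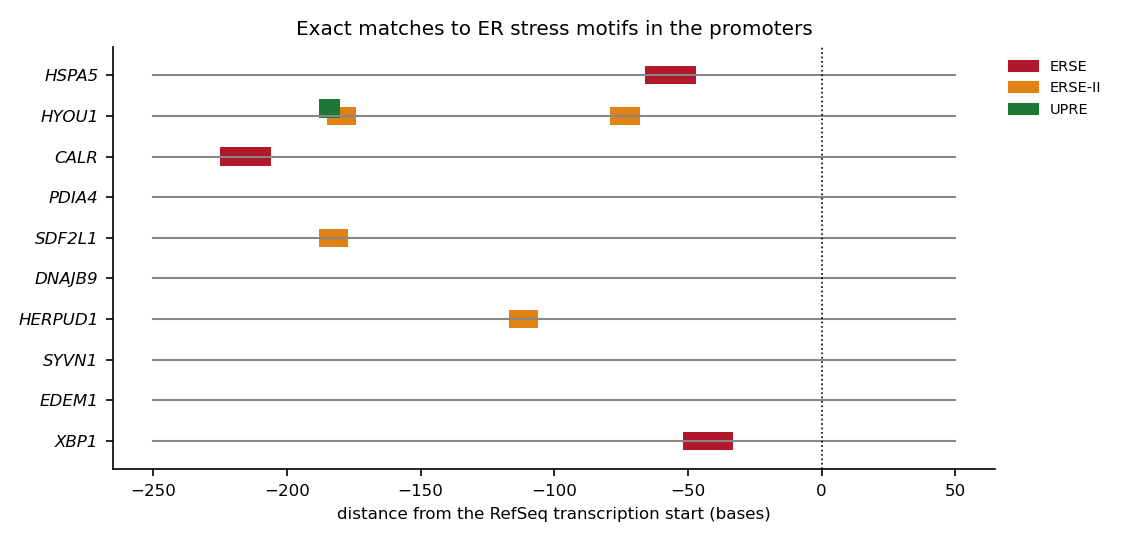
Exact matches to 3 motifs in the promoters of the 10 genes, from 250 bases before to 50 after the first listed RefSeq start (dotted line at 0); the horizontal axis is the distance in bases and each coloured block is 1 match. HSPA5, CALR and XBP1 carry an ERSE, HYOU1 carries 2 ERSE-II and a UPRE, HERPUD1 and SDF2L1 carry an ERSE-II, and the other 4 genes have none.

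Libraries held 66850705 to 111123481 counts. Since no label ties the replicates to separate cultures, each p-value speaks only of the spread among these libraries, and that spread may be technical. Counts on SARS2 itself were not lower in any group of the SARS2 line labelled without doxycycline: they were 23.4, 25.2 and 23.9 CPM (counts divided by library size after TMM scaling) with the drug, 30.5, 31.9 and 32.4 at day 3, 23.2, 25.8 and 25.02 at day 6 and 43.2, 33.99 and 48.1 at day 9. In the parental line SARS2 averaged 44.3 CPM with doxycycline and 39.85 without it. The means in the SARS2 line were 24.2 with the drug and 31.6, 24.7 and 41.8 at days 3, 6 and 9. Transgene and native reads fall on the same gene name, so the depletion could not be checked, and the groups are named by their labels throughout. Parental replicate 3 without doxycycline stood apart: of 10523 genes at 10 CPM or more, 229 were over 2-fold lower there than in the other 2 libraries of the group, against 0 to 39 in the other 17 libraries. Of those 229 genes, 211 had a transcript GC value, with a median of 64.5% against 47.8% for other genes. The haematopoietic markers of the leukaemia from which HAP1 comes summed to 0.0216 to 0.84 CPM over 10 genes, with MPO, HBG1, GATA1 and CD3E at 0 in every library, while VIM stood at 401 to 1010.0 CPM. In bulk RNA, fewer cells expressing a gene and less RNA per cell cannot be told apart.

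In the SARS2 line with doxycycline the 10 genes spanned a wide range of levels, here per kilobase of exonic length so that genes can be compared. CALR, a calcium-binding chaperone of glycoproteins, was the most abundant at 372 ± 24.3 CPM per kilobase (SD, n = 3). HSPA5, which encodes BiP, followed at 99.1 ± 5, then the disulfide isomerase PDIA4 at 74.4 ± 3.58 and SDF2L1 at 66.1 ± 4.29. XBP1 stood at 45.2 ± 1.81 and HYOU1 at 37.9 ± 1.25. The degradation genes and DNAJB9 were lower: HERPUD1 at 8.99 ± 1.09, SYVN1 at 7.48 ± 0.411, EDEM1 at 5.29 ± 0.394 and DNAJB9 at 4.63 ± 0.225. Neighbours in this order had no overlap between libraries, except PDIA4 with SDF2L1 and EDEM1 with DNAJB9. The counts are per gene, so the spliced form of XBP1 mRNA cannot be read from them.

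**Figure D2:**
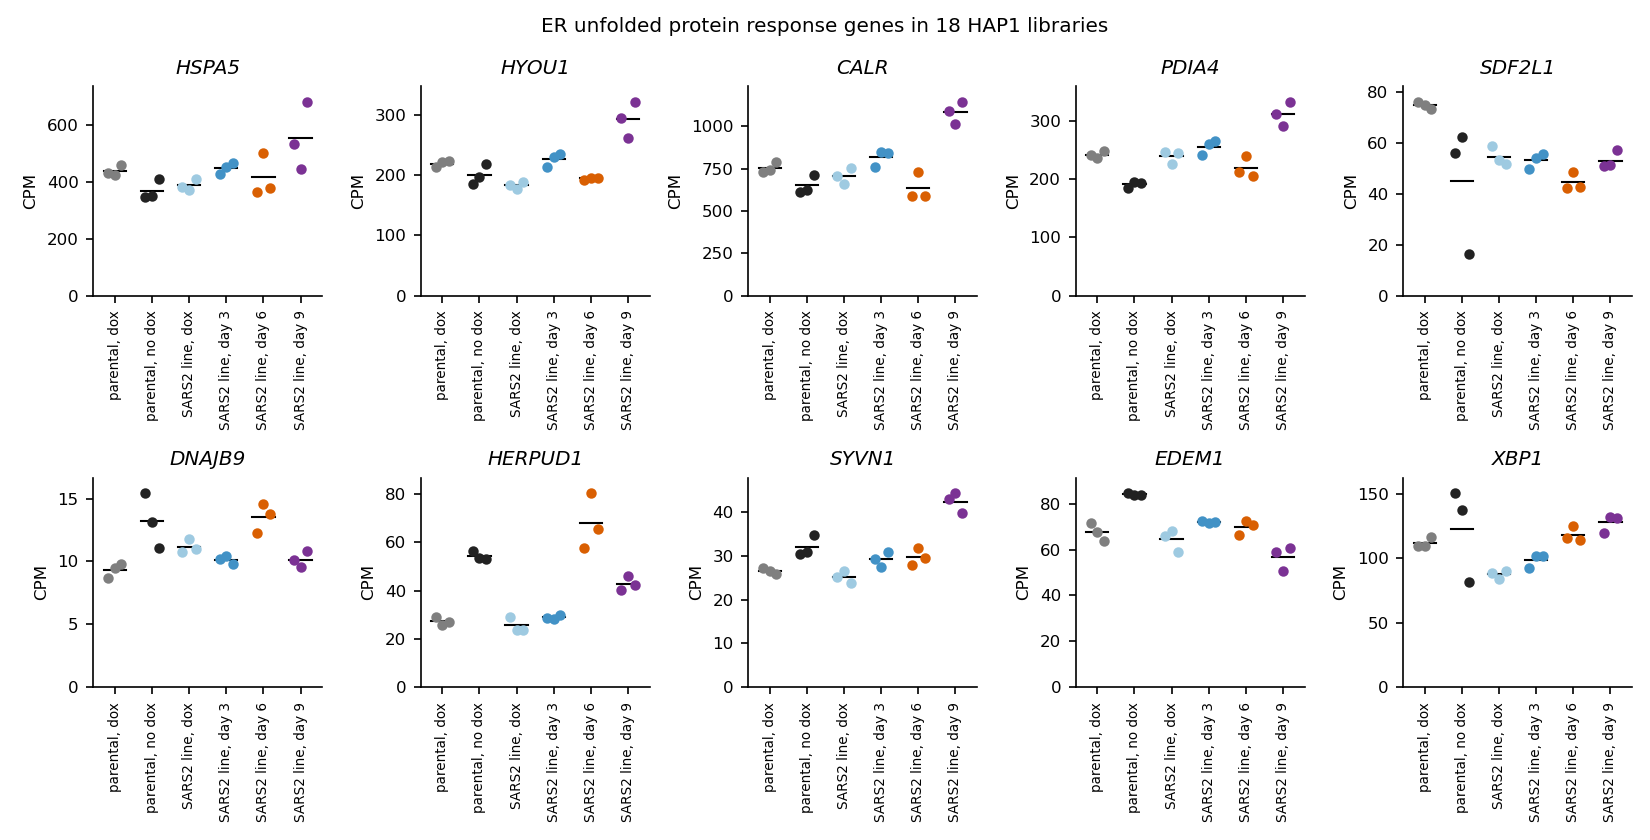
CPM of the 10 genes in each of the 18 libraries (points; bars are group means, n = 3), with the parental groups at the left and the SARS2 line at the right of each panel, every vertical axis starting at 0. HERPUD1 is highest in the day 6 libraries, CALR, HYOU1 and SYVN1 are highest in the day 9 libraries, and parental replicate 3 without doxycycline lies far below its group for SDF2L1 and XBP1.

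Among the folding genes, HSPA5 (chr9:125234853-125241343, minus strand, GRCh38) is the master chaperone of the ER and the usual readout of ER stress. In the SARS2 line it stood at 383, 373 and 410.4 CPM with doxycycline, 427, 453 and 466 at day 3, 365, 502 and 381 at day 6 and 534, 447 and 683 at day 9. At day 6 replicate 2 lay above, replicate 1 below and replicate 3 within the range with doxycycline, whereas all 3 libraries at day 9 lay above it. As a log2 fold change against doxycycline this was 0.21 (SE 0.124, adjusted p = 0.29) at day 3, 0.098 (SE 0.124, adjusted p = 0.6) at day 6 and 0.51 (SE 0.124, adjusted p = 0.0022) at day 9. Without replicate 3 of day 9 the last value was 0.34, still past the threshold, and without replicate 2 of day 6 the day 6 value was -0.071. With trends of transcript GC content, exonic length and genomic span removed, the day 9 value was 0.33, also past the threshold.

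HYOU1 (chr11:119044188-119057205, minus strand), a large HSP70-like chaperone that works as a nucleotide exchange factor for BiP, stood at 184, 177 and 189 CPM with doxycycline, 214, 231 and 235 at day 3, 193, 196 and 196 at day 6 and 295, 262 and 322 at day 9. Every library labelled without doxycycline lay above the 3 with it, by little at day 6 and by most at day 9. HYOU1 had a log2 fold change of 0.31 (SE 0.071, adjusted p = 0.0085) at day 3, 0.086 (SE 0.071, adjusted p = 0.4) at day 6 and 0.68 (SE 0.071, adjusted p = 4.4e-07) at day 9. The call at day 3 was lost without replicate 3 of day 3, where the value was 0.28, and with length and span trends removed (0.25). CALR (chr19:12938609-12944489, plus strand) stood at 708, 661 and 754 CPM with doxycycline, 760.1, 849 and 839 at day 3, 589.8, 728 and 587 at day 6 and 1088, 1014 and 1145 at day 9. All day 9 libraries lay above every other library of the series, and day 6 included the 2 lowest of the SARS2 line. The log2 fold change of CALR was -0.16 (SE 0.084, adjusted p = 0.18) at day 6 and 0.61 (SE 0.084, adjusted p = 8.9e-06) at day 9.

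PDIA4 (chr7:149003051-149028505, minus strand), which forms and rearranges disulfide bonds, stood at 246, 226 and 245 CPM with doxycycline, 241, 259 and 266 at day 3, 211, 239.7 and 205 at day 6 and 312, 290.2 and 333 at day 9. Day 9 lay above all other groups of the line, and day 6 overlapped the group with doxycycline. For PDIA4 the log2 fold change was -0.13 (SE 0.067, adjusted p = 0.17) at day 6 and 0.38 (SE 0.067, adjusted p = 0.00011) at day 9. Without replicate 2 of day 6, CALR at -0.28 and PDIA4 at -0.21 passed the threshold as lower at day 6. SDF2L1 (chr22:21642302-21644299, plus strand), a small partner of BiP and of ER HSP40 proteins, stood at 58.6, 53.2 and 51.9 CPM with doxycycline, 49.9, 53.97 and 55.5 at day 3, 42.1, 48.6 and 42.85 at day 6 and 50.7, 51.2 and 57.2 at day 9. All 3 day 6 libraries lay below the range with doxycycline, while days 3 and 9 overlapped it. Its log2 fold changes at days 3, 6 and 9 were -0.039, -0.29 and -0.041, none past the threshold (adjusted p = 0.95, 0.45 and 0.92), and each had an SE of 0.269. At day 6 it was called as lower, at -0.30 in both cases, without the filter on low counts and with only the groups compared in the fit. DNAJB9 (chr7:108569874-108574850, plus strand), an HSP40 that recruits BiP to IRE1, stood at 10.7, 11.8 and 10.98 CPM with doxycycline, 12.3, 14.6 and 13.8 at day 6 and 10.1, 9.53 and 10.8 at day 9. All 3 day 6 libraries lay above the range with doxycycline, and the log2 fold change of 0.28 (SE 0.109, adjusted p = 0.062) did not pass the threshold. It passed at 0.34 without replicate 1 of day 6, at 0.47 with the GC, length and span trends removed, and with DESeq2 at 0.28. It also passed by library size alone (0.35) and with only the groups compared (0.275).

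Of the degradation genes, HERPUD1 (chr16:56932142-56944864, plus strand) organises the complex that pulls misfolded proteins out of the ER. It stood at 29.3, 23.9 and 23.8 CPM with doxycycline, 28.7, 28.4 and 29.7 at day 3, 57.7, 80.5 and 65.6 at day 6 and 40.1, 45.95 and 42.4 at day 9. All day 6 libraries lay above every other library of the series, day 9 lay above day 3 and above the group with doxycycline, and those 2 groups overlapped. Its log2 fold change was 0.17 (SE 0.103, adjusted p = 0.29) at day 3, 1.40 (SE 0.104, adjusted p = 6.3e-08) at day 6 and 0.74 (SE 0.103, adjusted p = 1e-05) at day 9. When each library was left out in turn, the day 6 value ran from 1.25 to 1.51. SYVN1 (chr11:65127279-65134519, minus strand), the ubiquitin ligase HRD1 of the same complex, stood at 25.2, 26.5 and 23.7 CPM with doxycycline, 29.4, 27.4 and 30.9 at day 3, 27.8, 31.7 and 29.4 at day 6 and 42.9, 44.3 and 39.8 at day 9. Every library labelled without doxycycline lay above the 3 with it, and day 9 lay above all others. SYVN1 had a log2 fold change of 0.24 (SE 0.077, adjusted p = 0.027) at day 6 and 0.75 (SE 0.077, adjusted p = 3.3e-07) at day 9. The day 6 call was lost without replicate 2 (0.18) or 3 (0.24) of day 6 and without replicate 1 (0.24) or 3 (0.20) with doxycycline, without the filter on low counts (0.23), and with length and span trends (0.20) or GC, length and span trends (0.16) removed. SYVN1 overlaps the end of MRPL49 on the other strand, and the sources used here do not give the strand setting of the counting.

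EDEM1 (chr3:5187707-5219958, plus strand), which trims mannose from glycoproteins bound for degradation, moved the other way at day 9. It stood at 65.9, 68.3 and 59.1 CPM with doxycycline, 72.6, 71.7 and 72.1 at day 3, 66.5, 72.3 and 70.7 at day 6 and 58.99, 50.8 and 60.5 at day 9. The day 9 libraries overlapped the range with doxycycline and lay below all libraries of days 3 and 6. The log2 fold change at day 9 was -0.18 (SE 0.071, adjusted p = 0.042), and the call was lost without replicate 2 of day 9 (-0.11) and without replicate 1 (-0.17) or 2 (-0.14) with doxycycline, without the filter on low counts (-0.17), with a replicate block (-0.18) and with only the groups compared (-0.18). XBP1 (chr22:28794560-28800569, minus strand), the transcription factor itself, stood at 88.5, 83.7 and 90.5 CPM with doxycycline, 92.8, 102 and 102 at day 3, 116, 126 and 114 at day 6 and 120.1, 132 and 132 at day 9. Its level was above the range with doxycycline in all 9 libraries labelled without it. The log2 fold change was 0.18 (SE 0.137, adjusted p = 0.43) at day 3, 0.44 (SE 0.137, adjusted p = 0.023) at day 6 and 0.55 (SE 0.137, adjusted p = 0.0029) at day 9. The day 6 call was lost without replicate 2 (0.38) or 3 (0.46) of day 6 and without replicate 1 (0.45), 2 (0.40) or 3 (0.46) with doxycycline, while the day 9 call was kept in each fit that left out 1 library with doxycycline or of day 9.

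Counted together, 1 of the 10 genes was higher at day 3 and none was lower, where 13.4% of all tested genes were called, 6.5% higher and 6.87% lower (4 of the 10 higher at an unadjusted p under 0.05, and 2 called by DESeq2). At day 6, 3 were higher and none was lower, against 28.1% of all tested genes called, 14% higher and 14% lower (4 higher at an unadjusted p under 0.05, and 4 by DESeq2). At day 9, 7 were higher and 1 was lower, against 46.4% called, 22.6% higher and 23.8% lower. The median log2 fold change of the 10 genes was 0.17, 0.11 and 0.53 at days 3, 6 and 9, beside -0.002, 0.010 and -0.010 over all tested genes. The 3 contrasts share the libraries with doxycycline, so their values are side by side and not independent.

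**Figure D3:**
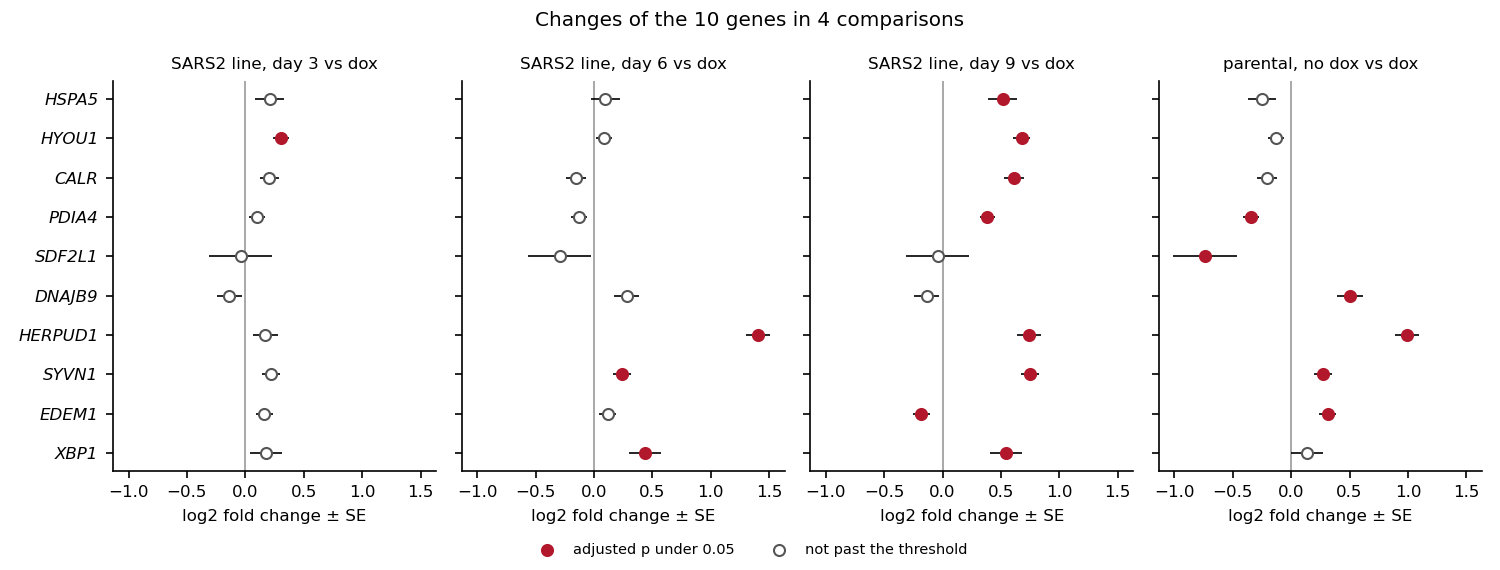
Log2 fold change (points) with its standard error (bars) of the 10 genes in 4 comparisons; filled points passed an adjusted p under 0.05. At day 6 and in the parental line HERPUD1 is the highest point and the chaperones HSPA5, HYOU1, CALR and PDIA4 sit near or below 0, while at day 9 these chaperones lie between 0.38 and 0.68.

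From day 3 to day 6, HERPUD1 rose by 1.23 (SE 0.103, adjusted p = 7.1e-08) and DNAJB9 by 0.42 (SE 0.109, adjusted p = 0.0043) on the log2 scale. Over the same step CALR (-0.36 (SE 0.084, adjusted p = 0.0018)), PDIA4 (-0.23 (SE 0.067, adjusted p = 0.011)) and HYOU1 (-0.22 (SE 0.071, adjusted p = 0.017)) fell. Thus 2 genes were higher and 3 lower, against 42.7% of all tested genes called, 21.9% higher and 20.8% lower. The HYOU1 call was lost without replicate 2 (-0.21) or 3 (-0.19) of day 3, and the PDIA4 call without replicate 3 of day 3 (-0.20) or of day 6 (-0.19). From day 6 to day 9 the order turned: CALR rose by 0.77 (SE 0.084, adjusted p = 2.5e-07), HYOU1 by 0.59 (SE 0.071, adjusted p = 7.7e-07), SYVN1 by 0.51 (SE 0.076, adjusted p = 1e-05), PDIA4 by 0.51 (SE 0.067, adjusted p = 2.4e-06) and HSPA5 by 0.41 (SE 0.124, adjusted p = 0.0074). In that step HERPUD1 (-0.67 (SE 0.102, adjusted p = 1.5e-05)), DNAJB9 (-0.42 (SE 0.108, adjusted p = 0.0027)) and EDEM1 (-0.30 (SE 0.071, adjusted p = 0.0013)) fell. So 5 were higher and 3 lower, against 58.8% of all tested genes called, 28.6% higher and 30.2% lower. The HSPA5 call of this step was lost without replicate 3 of day 9 (0.24), with the GC, length and span trends removed (0.15) and with only the groups compared (0.40).

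The parental line shows what went with the absence of doxycycline when SARS2 was not deleted. HERPUD1 stood at 29.3, 25.9 and 27 CPM with the drug and 56.4, 53.7 and 53.1 without it, with no overlap, a log2 fold change of 0.99 (SE 0.103, adjusted p = 1.2e-06). HSPA5 stood at 432, 426 and 459.5 CPM with it and 346, 350.3 and 412 without it, all 3 lower, with a log2 fold change of -0.25 (SE 0.124, adjusted p = 0.12). HSPA5 was called as lower without the filter on low counts (-0.253) and with only the groups compared in the fit (-0.275). PDIA4 stood at 241, 236 and 249 CPM with doxycycline and 184, 194 and 194 without it, all 3 lower, and fell, with a log2 fold change of -0.34 (SE 0.067, adjusted p = 0.00051). DNAJB9 rose by 0.50 (SE 0.109, adjusted p = 0.0011), EDEM1 by 0.31 (SE 0.071, adjusted p = 0.0016) and SYVN1 by 0.27 (SE 0.077, adjusted p = 0.0083). The EDEM1 value was 0.14, no longer called, with length and span trends removed. In all 4 genes were higher and 2 lower, against 39.4% of all tested genes called (21% higher and 18.4% lower), and the median of the 10 was 0.004 beside 0.028 over all tested genes.

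Replicate 3 of the parental group without doxycycline decided several of these values. SDF2L1 stood at 76.2, 75.02 and 73.3 CPM with the drug and 56.2, 62.3 and 16.2 without it, where replicate 3 is the low one. Its log2 fold change was -0.74 (SE 0.270, adjusted p = 0.036) with all libraries and -0.34, still called, without replicate 3. The call was lost without replicate 1 (-0.72), 2 (-0.74) or 3 (-0.75) of the parental group with doxycycline, by library size alone (-0.69), with only the groups compared (-0.76) and by DESeq2 (-0.75). XBP1 stood at 109.6, 109.5 and 117 CPM with it and 151, 138 and 81.5 without it, with a log2 fold change of 0.14 (SE 0.137, adjusted p = 0.45) and of 0.36, called, without replicate 3. Without it DNAJB9 was at 0.62, and CALR at -0.28 and HYOU1 at -0.20 were called as lower, so that 9 of the 10 genes were called, where 7719 of all tested genes were called against 8519 with all libraries. The CALR call did not need that removal. With all libraries kept, CALR was called as lower by DESeq2 (-0.22), with DESeq2 size factors (-0.22) and with a replicate block (-0.21). The same held without the filter on low counts (-0.21) and with only the groups compared (-0.23). SDF2L1 has the highest transcript GC content of the 10 genes, 65.5%, XBP1 has 50.1% and DNAJB9 40.4%. With the GC, length and span trends removed from all libraries, SDF2L1 was at -0.61 and XBP1 at 0.25 in this contrast.

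Whether the SARS2 line changed differently from the parental line was tested as the difference between the 2 log2 fold changes. At day 9 HYOU1 (0.81 (SE 0.10, adjusted p = 1.9e-06)), CALR (0.82 (SE 0.119, adjusted p = 1.1e-05)), HSPA5 (0.76 (SE 0.176, adjusted p = 0.0012)), PDIA4 (0.73 (SE 0.095, adjusted p = 3.4e-06)) and SYVN1 (0.48 (SE 0.108, adjusted p = 0.001)) changed more upward in the SARS2 line, while DNAJB9 (-0.64 (SE 0.154, adjusted p = 0.0017)) and EDEM1 (-0.50 (SE 0.10, adjusted p = 0.00037)) changed more downward, against 51.7% of all tested genes called, 24.4% higher and 27.3% lower. HERPUD1 did not pass at day 9, at -0.25 (SE 0.145, adjusted p = 0.16). It was called, as changing more downward, by library size alone (-0.36) and with the GC, length and span trends removed (-0.42). SYVN1 lost its call with the GC, length and span trends removed (0.22). SDF2L1 and XBP1 were not called in the main fit. At day 9 SDF2L1 was called without replicate 2 (1.02) or 3 (0.30) of the parental line without doxycycline, and XBP1 without replicate 1 (0.60) or 2 (0.51) of that group. Without the filter on low counts both were called at day 9 (0.71 and 0.42). At day 3 SDF2L1 was called without the filter (0.70), with the GC, length and span trends removed (0.665), and without replicate 2 (1.02) or 3 (0.30) of the same parental group. At day 6 none of the 10 passed in the main edgeR fit, against 12.6% of all tested genes called, 5.48% higher and 7.14% lower. Without the filter on low counts HSPA5 (0.35), SDF2L1 (0.44) and HERPUD1 (0.41) were called there. At an unadjusted p under 0.05, 3 were higher in the main fit, and DESeq2 called 1, HERPUD1. Its difference at day 6 was 0.41 (SE 0.144, adjusted p = 0.066), and it passed without replicate 1 of day 6 (0.54) or replicate 1 of the SARS2 line with doxycycline (0.52). At day 3, 4 were higher and 2 lower, against 39.5% of all tested genes called, 18.6% higher and 20.9% lower: HYOU1 (0.43 (SE 0.10, adjusted p = 0.0019)), CALR (0.41 (SE 0.119, adjusted p = 0.0094)), PDIA4 (0.44 (SE 0.095, adjusted p = 0.0011)) and HSPA5 (0.46 (SE 0.176, adjusted p = 0.046)) changed more upward in the SARS2 line, and HERPUD1 (-0.82 (SE 0.145, adjusted p = 0.00021)) and DNAJB9 (-0.64 (SE 0.154, adjusted p = 0.0026)) more downward. The HSPA5 call was lost in 9 of the 12 fits that left out 1 library (0.42 to 0.48), those without replicate 1 or 2 of the parental line without doxycycline, any replicate with it, replicate 1 or 2 of the SARS2 line with it, and replicate 2 or 3 of day 3. The HSPA5 and CALR calls were also lost with length and span trends removed (0.38 and 0.34) and with GC trends removed as well (0.28 and 0.27). With doxycycline, the SARS2 line differed from the parental line in 1 gene, HYOU1 at -0.26 (SE 0.071, adjusted p = 0.014), against 19.3% of all tested genes called, 9.32% higher and 9.97% lower. That call was lost without replicate 2 of the SARS2 line (-0.23) or replicate 3 of the parental line (-0.25).

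The sensors that start the response, and the factors downstream of PERK, did not move as 1 group. ERN1, which encodes IRE1, rose at day 6 (0.67 (SE 0.145, adjusted p = 0.0021)) and fell at day 9 (-0.65 (SE 0.147, adjusted p = 0.0012)). ATF6 rose at day 6 (0.30 (SE 0.070, adjusted p = 0.0036)) and in the parental line (0.58 (SE 0.070, adjusted p = 5.7e-06)), but at day 6 was not called with length and span trends removed (0.12) or GC trends as well (0.14). EIF2AK3 was at 0.19 (SE 0.095, adjusted p = 0.15) at day 6 and at -0.25 (SE 0.096, adjusted p = 0.036) at day 9, a call lost without replicate 1 (-0.28) or 2 (-0.18) with doxycycline and replicate 1 (-0.22) or 2 (-0.24) of day 9. That call was also lost with length and span trends removed (-0.16), with GC trends removed as well (-0.16), without the filter on low counts (-0.24) and with only the groups compared (-0.25). Within the SARS2 line ATF4 mRNA differed little from the group with doxycycline, at 0.26 (SE 0.060, adjusted p = 0.0091), 0.20 (SE 0.060, adjusted p = 0.018) and 0.17 (SE 0.060, adjusted p = 0.029) at days 3, 6 and 9. The day 3 call was lost with length and span trends removed (0.20) and with GC trends removed as well (0.17). With doxycycline, ATF4 was lower in the SARS2 line than in the parental line, at -0.49 (means of 400.3 and 562.9 CPM). In the parental line without against with the drug it was at 0.17, a call lost in several alternatives. The day 9 value of ATF4 was -0.12, on the other side of 0, with the GC, length and span trends removed, and leaving out replicate 1, 2 or 3 with doxycycline (0.17, 0.17 and 0.16) or replicate 3 of day 9 (0.12) ended its call, as did library size alone (0.10), no filter on low counts (0.17), length and span trends removed (0.083) and only the groups compared (0.17). At day 6 the ATF4 call was lost without replicate 2 of day 6 (0.16) or replicate 3 with doxycycline (0.20). ATF4 is controlled mainly at translation, which gene counts do not show. DDIT3, the factor CHOP, stood at 19.5, 18.1 and 18.8 CPM with doxycycline, 21.5, 18.6 and 20.2 at day 3, 45, 58.04 and 48.5 at day 6 and 36.8, 44.4 and 32.1 at day 9. It had no overlap with the group with doxycycline at days 6 and 9 and rose by 1.43 (SE 0.124, adjusted p = 4.6e-07) and 1.01 (SE 0.123, adjusted p = 2.5e-06), and by 1.22 (SE 0.123, adjusted p = 8.2e-07) in the parental line. Of 10 tested sensors and transducers, 3 were higher at day 6, and 2 were higher and 5 lower at day 9. Over all tested genes, 14% were higher and 14% lower at day 6, and 22.6% were higher and 23.8% lower at day 9.

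Other ER genes, from lists drawn up by function, gave the setting for the 10. Over all tested genes, 14% were higher and 14% lower at day 6, and 22.6% were higher and 23.8% lower at day 9. In the parental line without doxycycline these shares were 21% and 18.4%, and several counts below lie near such shares. Of 24 tested chaperones and folding enzymes, 4 were higher and 4 lower at day 6 and 12 were higher and 5 lower at day 9, with median log2 fold changes of -0.088 and 0.20. PPIB, a prolyl isomerase, fell at day 6 (-0.49 (SE 0.061, adjusted p = 1.6e-05)), and P4HB, the classical protein disulfide isomerase, fell at day 6 (-0.29 (SE 0.057, adjusted p = 0.00081)) and rose at day 9 (0.60 (SE 0.057, adjusted p = 1.4e-07)). ERO1B, which reoxidises disulfide isomerases, fell at day 9 (-1.28 (SE 0.143, adjusted p = 8.3e-07)), and SIL1, another exchange factor of BiP, fell with it (-0.55 (SE 0.081, adjusted p = 2e-05)). Of 20 other degradation genes, 2 were higher and 4 lower at day 6 and 10 were higher and 6 lower at day 9. SEL1L, the partner of SYVN1, rose at day 6 (0.58 (SE 0.073, adjusted p = 1.8e-05)), while the extraction ATPase VCP (-0.42 (SE 0.066, adjusted p = 0.00015)) and its cofactor UFD1 (-0.45 (SE 0.075, adjusted p = 0.00026)) fell. AUP1 (0.81 (SE 0.061, adjusted p = 1.2e-08)), NPLOC4 (0.67 (SE 0.064, adjusted p = 1.4e-07)) and FAF2 (0.71 (SE 0.089, adjusted p = 3.4e-06)), which act with that ATPase at the ER membrane, rose at day 9. Of 25 translocon and secretion genes, 2 were higher and 10 lower at day 6, among the latter the channel subunits SEC61G (-0.60 (SE 0.074, adjusted p = 1.5e-05)) and SEC61B (-0.53 (SE 0.077, adjusted p = 7.4e-05)), and 9 were higher and 4 lower at day 9, among the former the channel SEC61A1 (0.67 (SE 0.060, adjusted p = 7.2e-08)). In the parental line without doxycycline, 6 of the chaperones and folding enzymes were higher and 6 lower, 6 of the degradation genes were higher and 6 lower, and 10 of the translocon and secretion genes were higher and 5 lower.

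The integrated stress response list, chosen with earlier results of these data known, moved largely in 1 direction. Of its 45 genes, 20 were higher and none lower at day 3, 40 were higher and none lower at day 6, and 36 were higher and 1 lower at day 9. At an unadjusted p under 0.05, 1 gene was lower at day 3 and 1 at day 6, and DESeq2 called 0 lower at both. Over all tested genes, 6.5% were higher and 6.87% lower at day 3, 14% and 14% at day 6, and 22.6% and 23.8% at day 9. In the parental line 35 of the 45 were higher and none lower (1 lower at an unadjusted p under 0.05, and 1 by DESeq2). There, 21% of all tested genes were higher and 18.4% lower. The median log2 fold changes were 0.26, 0.62 and 0.64 at days 3, 6 and 9 and 0.48 in the parental line. At day 6 the secreted factor STC2 (1.09 (SE 0.063, adjusted p = 2.9e-09)), the ATF4 inhibitor TRIB3 (1.22 (SE 0.091, adjusted p = 6.5e-08)) and the peptide hormone ADM2 (1.45 (SE 0.115, adjusted p = 1.5e-07)) had the smallest adjusted p of the list. At day 9 these were the mTORC1 inhibitor SESN2 (1.28 (SE 0.072, adjusted p = 6.1e-10)), the glycine transporter SLC6A9 (1.57 (SE 0.093, adjusted p = 9.7e-10)) and the amino acid transporter SLC7A5 (1.04 (SE 0.063, adjusted p = 1.1e-09)). In the parental line they were the glutathione-degrading enzyme CHAC1 (1.92 (SE 0.129, adjusted p = 2.5e-08)), another mTORC1 inhibitor, DDIT4 (1.74 (SE 0.149, adjusted p = 2.2e-07)), and the lipoprotein receptor VLDLR (0.83 (SE 0.073, adjusted p = 2.5e-07)). From day 6 to day 9, 17 of the 45 rose and 14 fell, with a median of 0.012, and 5 of the 10 ER genes rose and 3 fell, against 28.6% of all tested genes higher and 30.2% lower. With doxycycline the SARS2 line had 30 of the 45 lower and 1 higher than the parental line, while 1 of the 10 ER genes was lower. Over all tested genes, 9.97% were lower and 9.32% higher in that comparison.

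**Figure D4:**
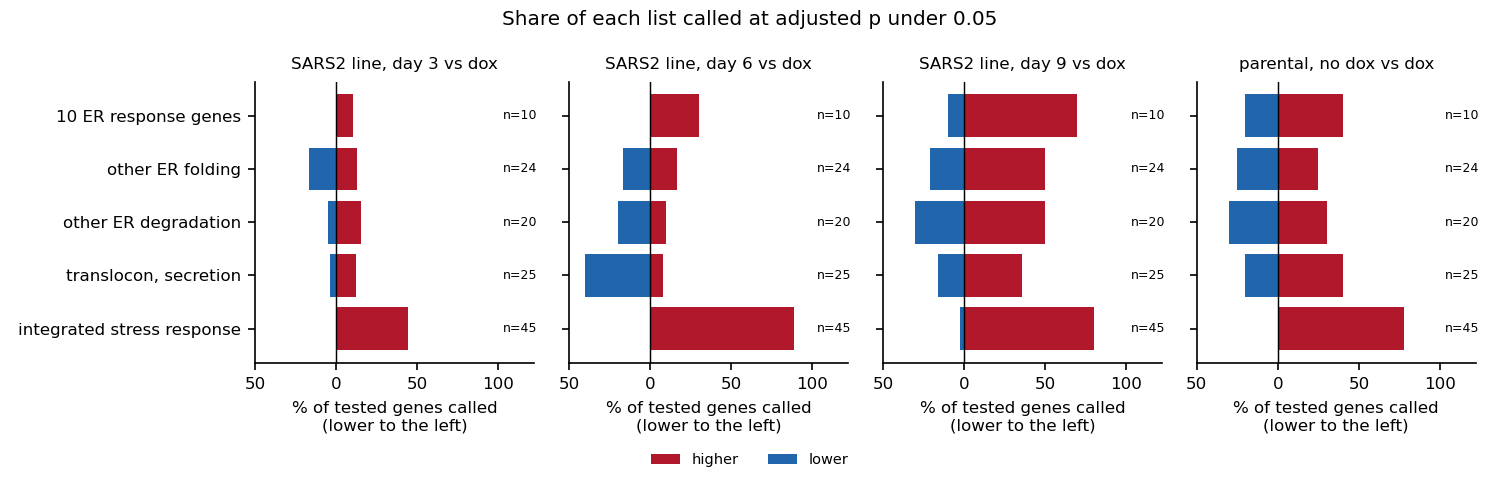
Percent of the tested genes of each list called higher (to the right) or lower (to the left) at an adjusted p under 0.05, in 4 comparisons, with the number of genes tested at the right of each bar. The integrated stress response list lies almost wholly to the right in all 4 comparisons, with 40 of 45 genes at day 6, whereas at day 6 and in the parental line the bars of the other ER folding, ER degradation, and translocon and secretion genes extend to both sides. The 10 genes extend to both sides in the parental line and to the right alone at day 6, with 3 higher and 0 lower. Over all tested genes, 14% were called higher and 14% lower at day 6.

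Each library was also set against the mean of its own line with doxycycline. The median of the 6 folding genes was -0.13, 0.069 and -0.12 (log2) in the day 6 libraries and 0.42, 0.24 and 0.59 in the day 9 libraries. The median of the 45 integrated stress response genes in the same libraries was 0.65, 0.57 and 0.61 at day 6 and 0.60, 0.68 and 0.64 at day 9. Medians of the folding genes thus did not overlap between day 6 and day 9, although single members did: replicate 2 of day 6 was above replicate 2 of day 9 for HSPA5, and DNAJB9 was lower at day 9. The median of the stress response list stands for members that moved both ways from day 6 to day 9. In the parental libraries without doxycycline the folding genes were at -0.32, -0.27 and -0.083 and the stress response genes at 0.48, 0.42 and 0.48. The 2 lines differ in the reference: with doxycycline, 30 of the 45 stress response genes were lower in the SARS2 line (median log2 fold change -0.39). These medians therefore do not compare levels between the lines. HERPUD1 was at 1.18, 1.66 and 1.36 at day 6, 0.65, 0.85 and 0.73 at day 9, and 1.04, 0.97 and 0.96 in the parental libraries without doxycycline.

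**Figure D5:**
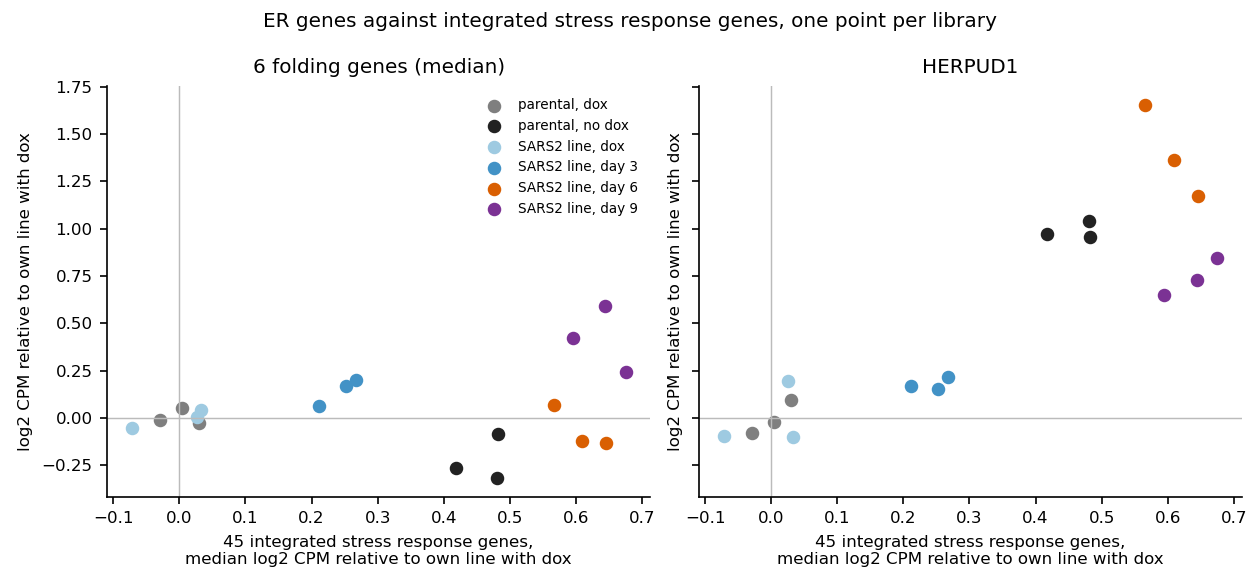
Each point is a library, with the median of 45 integrated stress response genes on the horizontal axis and, on the vertical axis, the median of 6 folding genes (left) or HERPUD1 (right), all as log2 CPM relative to the mean of the same line with doxycycline. Day 6 libraries lie between 0.57 and 0.65 and day 9 libraries between 0.60 and 0.68 on the horizontal axis. The median of the folding genes is higher at day 9 and HERPUD1 is higher at day 6. With doxycycline, 30 of the 45 genes were lower in the SARS2 line than in the parental line, so positions do not compare levels between lines.

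Over the 18 libraries, Pearson's r with the mean of the integrated stress response list was 0.87 for HERPUD1, 0.66 for XBP1, 0.57 for SYVN1, 0.47 for DNAJB9 and 0.29 for EDEM1. For the chaperones it was 0.18 for HYOU1, -0.025 for HSPA5, -0.098 for CALR, -0.32 for PDIA4 and -0.38 for SDF2L1. These are descriptions over 18 libraries in 6 groups, which share group means and the normalization. Among themselves, HSPA5 went with CALR (r = 0.87), PDIA4 (r = 0.85) and HYOU1 (r = 0.85) and not with HERPUD1 (r = -0.050). Day 6 against doxycycline in the SARS2 line and the parental line without and with doxycycline have no library in common. Across the 10 genes the log2 fold changes of these 2 contrasts had r = 0.87, with 8 of 10 of the same sign, beside r = 0.81 over the 45 stress response genes (40 of the same sign) and r = 0.41 over all 21615 tested genes (14685 of the same sign). Genes are not independent replicates.

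Of the other tested genes with a mean of 10 CPM or more, the 5 whose log2 CPM followed HSPA5 most closely over the 18 libraries were PCBP2 (r = 0.94), ZNHIT6 (r = 0.90), BRF2 (r = 0.88), CDH2 (r = 0.88) and CENPO (r = 0.87). None of these 5 is a known ER chaperone. At day 9 all 5 were higher than with doxycycline, from PCBP2 at 0.27 to BRF2 at 0.77 (log2 fold change), and at day 6 none of them passed the threshold. They were picked for following HSPA5 over these same libraries, so sharing its course is no separate result. Over all tested genes, 22.6% were higher at day 9 and 28.1% were called at day 6.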

How the data were processed

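Per the file headers, the deposited values are unnormalized whole-number counts for each gene. The build was GRCh38 and the tools named are cutadapt 2.3, HISAT2 and SAMtools, featureCounts of the Subread package, and DESeq2, per the submitters' processing notes; the sources used here do not give the annotation release or the strand setting. In the tables, 16 genes broken over lines were rejoined, 6 libraries present in 2 tables were identical and were used once, and the 37 mitochondrial chromosome genes held 0 counts. Libraries held 66850705 to 111123481 counts.

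Counts were tested here with edgeR 4.0.16 (R 4.3.3): filterByExpr by group (21615 genes kept), TMM scaling, 1 mean per group over all 18 libraries, quasi-likelihood F-tests and Benjamini-Hochberg adjustment over all tested genes, with a call at an adjusted p under 0.05. The script was tested on simulated data. SE is that of the log2 fold change. Levels are CPM on TMM-scaled library sizes, or CPM per kilobase of exonic length. The alternatives were library size alone, DESeq2 size factors, DESeq2 1.42.0, no filter, only the groups compared, a replicate block, length and span trends removed (mgcv 1.9.3), and each library left out; removal of GC trends was added after seeing the data.

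The 10 genes and all lists were chosen with earlier results of these data known. Named are the 10 genes, ERN1, ATF6, EIF2AK3, ATF4 and DDIT3, the called genes with the smallest adjusted p of each list (up to 3 per comparison), and the 5 genes most correlated with HSPA5. Promoter sequences are from RefSeq. Markers of epithelial cells summed to 38.8 to 69.5 CPM and of mesenchymal cells to 596 to 1209 CPM, both highest at day 9.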

Additional observations from a re-analysis of the deposited data

Results flagged for a closer look

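For the genes below, the change in the SARS2 line differed from the change in the parental line by edgeR's test of the difference itself, which is what drew attention to them. Values are the SARS2 line's log2 fold change minus the parental line's, with the SE and adjusted p; the same parental libraries, replicate 3 without doxycycline included, enter all of them. Over all tested genes, 39.5% were called in this test at day 3 and 51.7% at day 9. Among the chaperones, HSPA5 differed by 0.46 (SE 0.18, adjusted p = 0.046) at day 3 and 0.76 (SE 0.18, adjusted p = 0.0012) at day 9. HYOU1 differed by 0.43 (SE 0.10, adjusted p = 0.0019) and 0.81 (SE 0.10, adjusted p = 1.9e-06) at these days. CALR differed by 0.41 (SE 0.12, adjusted p = 0.0094) and 0.82 (SE 0.12, adjusted p = 1.1e-05), and PDIA4 by 0.44 (SE 0.09, adjusted p = 0.0011) and 0.73 (SE 0.09, adjusted p = 3.4e-06). The day 3 calls of HSPA5 and CALR were lost with length and span trends removed (0.38 and 0.34) and with GC trends removed as well (0.28 and 0.27). Most fits that left out 1 library also lost the day 3 call of HSPA5. The HSP40 gene DNAJB9 was at -0.64 at both days (adjusted p = 0.0026 and 0.0017).

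Of the degradation genes, HERPUD1 was at -0.82 (SE 0.15, adjusted p = 0.00021) at day 3, and at day 9 SYVN1 was at 0.48 (SE 0.11, adjusted p = 0.001) and EDEM1 at -0.50 (SE 0.10, adjusted p = 0.00037). The SYVN1 call was lost with the GC, length and span trends removed (0.22). The sensor ATF6 was at -0.78 (SE 0.10, adjusted p = 7.7e-06) at day 3 and -0.72 (SE 0.10, adjusted p = 6.5e-06) at day 9. ERN1 was at -0.85 (SE 0.21, adjusted p = 0.0019) and EIF2AK3 at -0.38 (SE 0.14, adjusted p = 0.023) at day 9. With length and span trends removed, ATF6 was at -0.23 at day 9, still called, and EIF2AK3 was at -0.14, no longer called. The EIF2AK3 call was also lost without replicate 1 of the parental line without doxycycline (-0.31), replicate 3 of it with doxycycline (-0.36), replicate 2 of the SARS2 line with it (-0.30) or replicate 1 of day 9 (-0.35). DDIT3 was at -1.13 (SE 0.17, adjusted p = 5.5e-05) at day 3.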

How the results depend on the processing

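No value of the 10 genes that had passed the threshold changed direction under an alternative. Each count of the 10 genes called is followed here by the count over all tested genes under the same alternative. At day 3, 1 of the 10 was called (2889 of all genes); the counts were 3 (3358) without the low-count filter, 0 (2688) with length and span trends removed, 6 (6536) with only the groups compared, 2 (3784) by DESeq2, and 0 to 1 (1088 to 2564) when a library was left out. At day 6 they were 3 (6069), and 5 (6288) by library size alone, 5 (7311) with only the groups compared and 1 to 4 (3835 to 5855) when a library was left out. For the SARS2 line against the parental line with doxycycline they were 1 (4171), and 3 (4521) without the filter, 3 (4743) with the GC, length and span trends removed, 5 (7309) with only the groups compared and 0 to 1 (2593 to 3847) when a library was left out. For the day 6 difference between lines they were 0 (2728), and 3 (3379) without the filter, 1 (3679) by DESeq2 and 0 to 1 (1625 to 3301) when a library was left out. Between days 6 and 3 they were 5 (9234), and 3 to 5 (7586 to 8721) when a library was left out. The cause of these differences was not tested. ATF4 at day 9 was at -0.118 with the GC, length and span trends removed. Replicate numbers did not pair the samples: over 45 same-numbered pairs the correlation of deviations ran from -0.077 to 0.07, and 0 libraries correlated best with their own number. With a replicate block, 98 of 100 values of the 10 genes kept their side of the threshold, 1 lost its call (EDEM1 at day 9, -0.18) and 1 gained it (CALR in the parental line, -0.21); the counts were 7 at day 9, 7 in the parental line and otherwise as without it. Library size alone gave 64.3% of calls over all genes as higher at day 6 (50% with TMM) and 38.6% from day 6 to day 9 (48.7%). With length and span trends removed the share higher was 32.6% at day 6, 41.1% from day 3 to day 6 (51.3%) and 40.9% in the parental line (53.3%). The lowest count of any of the 10 genes in a library was 721 (DNAJB9), and 3 libraries per group limit what could be called.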
